A study of Mus musculus with 8 samples.

Results

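Glycolysis and gluconeogenesis genes were read out in the lungs of bleomycin-treated Slc15a3-/- mice (KO_BLM) and bleomycin-treated wild-type mice (WT_BLM). The genes are the 67 entries that the deposited annotation places in the mouse glycolysis and gluconeogenesis map of KEGG (a database of metabolic pathways), less 13 aldehyde and alcohol dehydrogenase genes, which leaves 54 of the 18824 genes in the count table. Of these, 40 had enough reads to be tested and 14 did not.

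The KO_BLM group held 4 libraries from mice lacking Slc15a3, which encodes the lysosomal histidine and peptide transporter SLC15A3 (also named PHT2). The WT_BLM group held 4 libraries from wild-type mice. Mice of both groups were 8 weeks old, received 2 mg/kg bleomycin, a drug that injures the lung and leaves fibrosis, into the trachea in 50 µl saline on day 0, and were killed on day 21. Every library is therefore from bleomycin-injured lung, and saline-treated mice were not analysed here. The sources used here do not give the strain, the sex or the cells in which Slc15a3 was deleted. The labels also do not say that each library is a separate animal, so p-values reflect only library-to-library spread, which may be technical. Total counts were 17627999 to 18471445 in KO_BLM and 18878835 to 20180831 in WT_BLM. The targeted gene matched the labels: Slc15a3 had 8, 5, 18 and 15 counts in KO_BLM libraries 1 to 4, against 935, 1124, 974 and 841 counts in WT_BLM libraries 1 to 4.

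Glycolysis converts glucose to pyruvate in the cytosol. Its preparatory reactions spend ATP to split glucose into triose phosphates, and its payoff reactions, from glyceraldehyde-3-phosphate dehydrogenase to pyruvate kinase, yield ATP and NADH. Pyruvate is then reduced to lactate by lactate dehydrogenase or enters mitochondria, where the pyruvate dehydrogenase complex makes acetyl-CoA. Gluconeogenesis runs most of the same reactions backwards and needs its own enzymes at the irreversible steps. Many steps are served by isozymes encoded by different genes, and in fibrotic lung glycolysis is best known as a feature of activated fibroblasts and of inflammatory macrophages.

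The promoters below belong to picked members that differed between the groups, not to those with the largest changes. The lower ones, Pgk1, Pgam1 and Ldha, are among the 5 of 15 lower members whose windows held the ACGTG core described below. They do not stand for the lower members as a set. Eno1, Pkm and Acss1 had larger log2 fold changes (-1.33, -1.03 and 1.21) than Pgk1, Pgam1 and Ldha (-0.72, -0.80 and -0.59). The windows of Eno1, Pkm and Acss1, not printed here, held 0 ACGTG cores each, and 1, 0 and 0 GCGTG cores. Pgk1, Pgam1 and Ldha were lower in KO_BLM and Ldhb was higher, and the lactate dehydrogenase pair moved in opposite directions. Each window is the 250 bases before the transcription start in the RefSeq promoter table (build GRCm38.p6), printed 5′ to 3′ on the gene's own strand. The start used for Ldha lies inside the longest annotated extent of that gene. Capitals mark ACGTG or GCGTG, the core of the hypoxia response element, on either strand, so that CACGT and CACGC mark the same cores on the opposite strand. CACGTG, which is also the core E-box bound by MYC, counts once on each strand.
Pgk1, chrX:106186850-106187099, plus strand: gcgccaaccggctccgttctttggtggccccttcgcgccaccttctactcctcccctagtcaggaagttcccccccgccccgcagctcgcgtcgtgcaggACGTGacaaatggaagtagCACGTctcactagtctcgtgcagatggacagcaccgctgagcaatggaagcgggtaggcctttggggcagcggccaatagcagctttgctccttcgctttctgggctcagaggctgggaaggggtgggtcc
Pgam1, chr19:41911621-41911870, plus strand: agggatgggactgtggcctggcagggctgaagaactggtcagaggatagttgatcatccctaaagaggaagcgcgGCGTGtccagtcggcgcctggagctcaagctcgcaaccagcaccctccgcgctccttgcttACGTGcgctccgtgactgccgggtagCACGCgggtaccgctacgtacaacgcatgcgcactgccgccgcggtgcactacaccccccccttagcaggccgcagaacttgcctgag
Ldha, chr7:46845554-46845803, plus strand: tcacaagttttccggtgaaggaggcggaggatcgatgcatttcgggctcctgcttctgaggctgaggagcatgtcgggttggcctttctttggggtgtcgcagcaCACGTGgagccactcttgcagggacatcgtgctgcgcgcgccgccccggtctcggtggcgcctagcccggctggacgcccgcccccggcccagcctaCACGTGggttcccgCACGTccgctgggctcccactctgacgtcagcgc
Ldhb, chr6:142507958-142508207, minus strand: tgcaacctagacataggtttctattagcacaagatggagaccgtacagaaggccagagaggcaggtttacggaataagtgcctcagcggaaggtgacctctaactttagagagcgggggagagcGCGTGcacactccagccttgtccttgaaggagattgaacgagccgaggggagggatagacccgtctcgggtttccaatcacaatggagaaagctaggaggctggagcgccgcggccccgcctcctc
The Pgk1 window held 2 ACGTG cores, the Pgam1 window 1 ACGTG and 2 GCGTG cores, the Ldha window 5 ACGTG cores counted over both strands, and the Ldhb window 1 GCGTG core. Across the pathway, either core was found in 7 of the 15 windows of members that were lower (46.7%), in 2 of the 5 windows of members that were higher (40.0%) and in 14 of the 17 windows of tested members that did not pass the test (82.4%). Of all 11669 tested genes with a window, 54.3% held either core. The stricter ACGTG core was found in 5 of 15, 0 of 5 and 6 of 17 of these windows, against 20.8% of all tested genes. These are matches of letters in a short window and not measured binding sites.

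Across the pathway, 16 of the 40 tested members were lower and 5 were higher in KO_BLM (edgeR's quasi-likelihood test, Benjamini-Hochberg adjusted p under 0.05 over all 14746 genes tested). This contrast was broad: 41.5% of all tested genes passed the test, 20.8% lower and 20.7% higher. The lower calls among the members were 40.0% and the higher calls 12.5%. In 21 of the 40 tested members the CPM ranges of the groups did not overlap, against 40.9% of all tested genes. With library totals alone for scaling, in place of the trimmed mean of M-values, the share of higher genes among all calls was 62.7% instead of 50.0%, and the members then had 15 lower and 6 higher calls. The median log2 fold change of the tested members was -0.20, and that of all tested genes was 0.00. Of the 26 members with at least 10 FPKM over all libraries, 13 were lower (50.0%) and 2 higher (7.69%), against 26.9% and 16.1% of all genes of that level. FPKM is the deposited level per kilobase of gene length and per 1000000 counts. The lower members were Pkm, Eno1, Pgk1, Pgam1, Gapdh, Ldha, Tpi1, Pgm2, Eno1b, Akr1a1, Gpi1, Hk1, Eno2, Hk2, Dlat and Aldoa, and the higher members were Acss1, Ldhb, Eno4, Acss2 and Pgam2.

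The calls were unevenly spread over the reactions. From glucose phosphorylation to triosephosphate isomerase, 5 of 13 tested members were lower and 0 higher, with a median log2 fold change of -0.26. From glyceraldehyde-3-phosphate dehydrogenase to pyruvate kinase, 7 of 10 tested members were lower and 2 higher, with a median of -0.80. These 7, and the lower members of the whole pathway, count Eno1b. It shares most of its transcript sequence with other genes, Eno1 among them, and is not a separate result. The pyruvate dehydrogenase complex had 1 lower call among 5 tested members, with a median of -0.20, and the genes of gluconeogenesis alone had 0 calls among 2 tested members. Both tested lactate dehydrogenase genes were called, in opposite directions. No test was made of the difference between these groups of reactions.

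**Figure D1:**
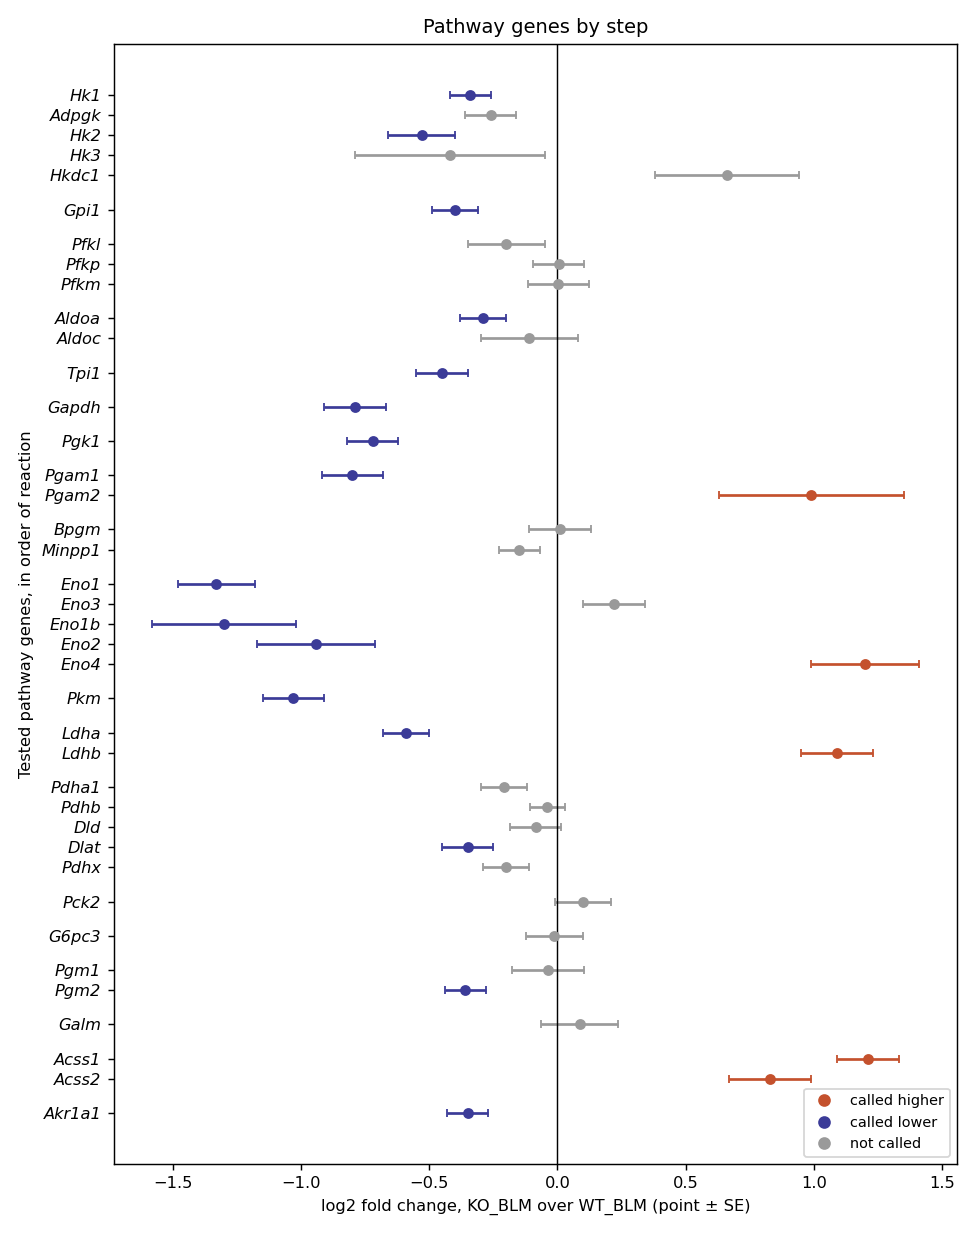
The plot gives the log2 fold change of the tested pathway genes that the text names, KO_BLM over WT_BLM, as a point with its standard error, from glucose phosphorylation at the top to the side reactions at the bottom. Colour marks genes called lower (16), called higher (5) and not called (18), and the points farthest left are Eno1 (-1.33) and Eno1b (-1.30). Eno1b shares most of its transcript sequence with other genes, Eno1 among them, and is not a separate result.

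Transcript levels of cell type markers also differed between the groups, and in bulk tissue fewer cells of a type and less RNA per cell cannot be told apart. Levels here and below are CPM, counts per 1000000 of the scaled library size, unless FPKM is named. All 6 tested markers of activated fibroblasts were lower in KO_BLM, with summed levels of 1983.5 to 2273.7 CPM in KO_BLM, against 5553.8 to 6350.2 CPM in WT_BLM. Markers of recruited and scar macrophages were lower in 6 of 7, at 390.1, 543.6, 2357.0 and 2465.2 CPM in KO_BLM libraries 1 to 4, against 5472.3 to 6253.8 CPM in WT_BLM. Transitional alveolar markers were lower in 5 of 5, at 617.8 to 890.4 CPM in KO_BLM and 1164.6 to 1404.4 CPM in WT_BLM. Alveolar type 2 markers were higher in 6 of 6, at 18836.2 to 29971.3 CPM in KO_BLM and 7409.7 to 10837.9 CPM in WT_BLM, and T and natural killer cell markers were higher in 6 of 6, at 70.4 to 150.0 CPM in KO_BLM and 11.9 to 32.1 CPM in WT_BLM. No marker of these lists was at 0 in all libraries. The part of these cell types in the pathway results was not tested.

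Within KO_BLM, libraries 1 and 2 stood apart from libraries 3 and 4 in the scar macrophage, transitional and alveolar type 2 markers but not in those of activated fibroblasts or T and natural killer cells. Summed transitional markers were 617.8, 656.5, 820.0 and 890.4 CPM in KO_BLM libraries 1 to 4. The calls were therefore also made for each pair against all 4 WT_BLM libraries, a check chosen after the data were seen, and the labels do not mark the pairs as batches. With KO_BLM libraries 1 and 2, 13 members were lower and 4 higher (33.9% of all tested genes called). With KO_BLM libraries 3 and 4, 9 were lower and 6 higher (22.6% called). Gpi1, Gapdh, Pgk1, Pgam1, Eno1, Pkm, Ldha, Ldhb, Eno4, Acss1 and Acss2 passed the test in both.

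Glucose is trapped in the cell by hexokinases. Hk1, the broadly expressed hexokinase (NCBI gene 15275, chr10:62268855-62379920), had 94.0, 87.9, 86.4 and 79.4 CPM in KO_BLM libraries, against 103.1, 121.0, 107.2 and 109.0 CPM in WT_BLM libraries. Every KO_BLM library lay below every WT_BLM library, and the level was 1.27-fold lower (log2 fold change -0.34, SE 0.08, adjusted p = 0.00962). Hk2, the insulin- and hypoxia-responsive hexokinase, had 30.7, 24.8, 24.0 and 25.2 CPM in KO_BLM, against 44.0, 32.1, 32.5 and 42.2 CPM in WT_BLM, again without overlap and 1.44-fold lower (log2 fold change -0.53, SE 0.13, adjusted p = 0.0109). With KO_BLM libraries 1 and 2 alone, neither passed the test (adjusted p = 0.0562 for Hk1 and 0.0828 for Hk2). Adpgk, Hk3 and Hkdc1 did not pass the test. Adpgk, an ADP-dependent kinase of glucose, averaged 33.4 ± 2.79 CPM in KO_BLM and 39.9 ± 4.48 CPM in WT_BLM (SD, n = 4 each; adjusted p = 0.0678 by edgeR). Hk3, a hexokinase of myeloid cells, varied widely, with 6.06, 6.31, 13.5 and 14.3 CPM in KO_BLM, against 20.2, 13.9, 13.4 and 6.54 CPM in WT_BLM (adjusted p = 0.379). Hkdc1 averaged 11.2 ± 2.24 CPM in KO_BLM and 7.1 ± 3.0 CPM in WT_BLM (adjusted p = 0.0843). By FPKM, Hk1 led the step with 16.6 in KO_BLM and 19.8 in WT_BLM.

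The next reactions rearrange and split the hexose. Gpi1, glucose-6-phosphate isomerase (NCBI gene 14751, chr7:34201327-34230336), had 301.6, 290.8, 329.2 and 257.1 CPM in KO_BLM, against 366.0, 393.9, 394.4 and 403.2 CPM in WT_BLM. The groups did not overlap, and Gpi1 was 1.32-fold lower (log2 fold change -0.40, SE 0.09, adjusted p = 0.00693). Phosphofructokinase, the main regulated step of glycolysis, showed 0 calls among its 3 genes. Pfkl, the liver-type subunit, had 62.5, 64.8, 68.7 and 61.3 CPM in KO_BLM, against 62.5, 94.5, 80.7 and 56.7 CPM in WT_BLM, so the KO_BLM values lay within the spread of the WT_BLM values (log2 fold change -0.20, SE 0.15, adjusted p = 0.309). Pfkp, the platelet-type subunit, averaged 67.9 ± 5.15 CPM in KO_BLM and 67.7 ± 7.82 CPM in WT_BLM, and Pfkm, the muscle-type subunit, 26.1 ± 3.76 CPM in KO_BLM and 26.0 ± 2.0 CPM in WT_BLM (SD, n = 4 each; adjusted p = 0.977 and 0.984 by edgeR). The summed FPKM of the step was 40.0 ± 2.71 in KO_BLM and 40.0 ± 7.3 in WT_BLM.

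Aldoa, the muscle-type aldolase (NCBI gene 11674, chr7:126795234-126800994), had 542.2, 553.2, 624.8 and 553.9 CPM in KO_BLM, against 637.0, 731.2, 716.9 and 695.8 CPM in WT_BLM. The groups did not overlap, but KO_BLM library 3 came close to WT_BLM library 1. Aldoa was 1.22-fold lower (log2 fold change -0.29, SE 0.09, adjusted p = 0.0225). This call was lost without KO_BLM library 1 (adjusted p = 0.0582), without KO_BLM library 2 (0.0697), without WT_BLM library 2 (0.0529) or without WT_BLM library 3 (0.0536), with library totals alone (0.101), and with KO_BLM libraries 3 and 4 alone (0.154). Aldoc, the brain-type aldolase, averaged 9.17 ± 2.35 CPM in KO_BLM and 9.92 ± 1.17 CPM in WT_BLM (SD, n = 4 each; adjusted p = 0.664 by edgeR). The testis genes Aldoart1 and Aldoart2 had at most 2 counts in a group and were not tested. Tpi1, triosephosphate isomerase (NCBI gene 21991, chr6:124810586-124814158), had 119.2, 127.2, 138.1 and 132.4 CPM in KO_BLM, against 150.2, 192.0, 188.4 and 176.1 CPM in WT_BLM. It was 1.37-fold lower without overlap (log2 fold change -0.45, SE 0.10, adjusted p = 0.00492), and with KO_BLM libraries 3 and 4 alone the adjusted p was 0.0548.

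The payoff reactions held the largest decreases of the pathway. Gapdh, glyceraldehyde-3-phosphate dehydrogenase (NCBI gene 14433, chr6:125161852-125166467), had 30.2, 30.9, 42.8 and 34.9 CPM in KO_BLM, against 54.1, 61.3, 62.2 and 63.2 CPM in WT_BLM. The highest KO_BLM library lay below the lowest WT_BLM library, and Gapdh, which is often used as a reference gene, was 1.73-fold lower (log2 fold change -0.79, SE 0.12, adjusted p = 0.000844). Its level per length, 20.6 FPKM in KO_BLM and 33.6 FPKM in WT_BLM, was low beside Aldoa (252.9 FPKM in KO_BLM and 291.4 FPKM in WT_BLM). Of the 75-base words in Gapdh transcripts, 55.5% also occur in transcripts of other genes, 118 in number and 115 of them pseudogenes, so reads may have been left out or shared in the counting and the level is uncertain. Gapdhs, the sperm form, had 43 counts over the KO_BLM libraries and 21 over the WT_BLM libraries and was not tested.

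Pgk1, phosphoglycerate kinase and the X-linked form used outside testis (NCBI gene 18655, chrX:106187100-106203699), had 93.4, 95.2, 112.5 and 107.9 CPM in KO_BLM, against 159.2, 177.5, 152.3 and 187.1 CPM in WT_BLM. All KO_BLM libraries lay well below all WT_BLM libraries, a 1.65-fold lower level (log2 fold change -0.72, SE 0.10, adjusted p = 0.000515). Pgam1, the non-muscle phosphoglycerate mutase (NCBI gene 18648, chr19:41911871-41918665), had 48.7, 52.5, 66.9 and 57.2 CPM in KO_BLM, against 88.4, 95.9, 95.7 and 113.0 CPM in WT_BLM. It too was lower without overlap, 1.74-fold (log2 fold change -0.80, SE 0.12, adjusted p = 0.00073). Pgk1 shares 67.5% and Pgam1 40.6% of its 75-base words with other genes, all of them pseudogenes.

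Pgam2, the phosphoglycerate mutase of heart and skeletal muscle (NCBI gene 56012, chr11:5801637-5803796), went the other way at a low level. It had 26, 22, 63 and 58 counts in KO_BLM, against 21, 25, 23 and 16 counts in WT_BLM, which is 1.43, 1.23, 3.28 and 3.02 CPM in KO_BLM, against 1.15, 1.24, 1.23 and 0.871 CPM in WT_BLM. Only KO_BLM libraries 3 and 4 were high, and libraries 1 and 2 lay at the WT_BLM level. The 1.99-fold increase (log2 fold change 0.99, SE 0.36, adjusted p = 0.047) was lost without KO_BLM library 3 (adjusted p = 0.132), without KO_BLM library 4 (0.118), without any 1 of the WT_BLM libraries (0.0686 to 0.0992), and with KO_BLM libraries 1 and 2 alone (0.557). Heart muscle markers, such as those of the muscle sleeves around pulmonary veins, were also highest in KO_BLM libraries 3 and 4. Their summed level was 71.5, 83.8, 204.8 and 254.8 CPM in KO_BLM, against 143.6, 38.2, 51.2 and 62.2 CPM in WT_BLM, with 3 of 7 markers called higher. In WT_BLM library 1 the markers were raised beside the other WT_BLM libraries, but Pgam2 was not. Skeletal muscle markers summed to 4.02, 4.18, 7.82 and 9.02 CPM in KO_BLM, against 4.08 to 5.72 CPM in WT_BLM. Their part in the Pgam2 result was not tested.

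Enolase carried the largest single decrease. Eno1, the enolase of most tissues (NCBI gene 13806, chr4:150236708-150248879), had 166.8, 182.0, 250.7 and 216.2 CPM in KO_BLM, against 422.9, 505.8, 501.6 and 624.7 CPM in WT_BLM. Even the highest KO_BLM library was far below the lowest WT_BLM library, and Eno1 was 2.52-fold lower (log2 fold change -1.33, SE 0.15, adjusted p = 0.000221). Within KO_BLM, libraries 3 and 4 were above libraries 1 and 2, and the log2 fold change was -1.56 with libraries 1 and 2 alone and -1.14 with libraries 3 and 4 alone. Eno1b, an Eno1-like gene, had 1.6, 1.39, 3.13 and 2.09 CPM in KO_BLM, against 4.29, 4.81, 4.45 and 6.75 CPM in WT_BLM, 2.46-fold lower (log2 fold change -1.30, SE 0.28, adjusted p = 0.00534). It shares 80.6% of its 75-base words with other genes, Eno1 among them, so it cannot be read as a separate result. Eno1 itself shares 44.3% of its words with 6 other genes, 5 of them pseudogenes. With KO_BLM libraries 3 and 4 alone, the adjusted p of Eno1b was 0.0532.

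The remaining enolases did not move as a group. Eno2, the neuronal enolase, had 3.53, 4.35, 3.6 and 6.15 CPM in KO_BLM, against 8.08, 8.83, 10.9 and 6.15 CPM in WT_BLM, and was 1.92-fold lower (log2 fold change -0.94, SE 0.23, adjusted p = 0.0103). Its highest KO_BLM and lowest WT_BLM libraries nearly coincided, and with KO_BLM libraries 3 and 4 alone the adjusted p was 0.0904. Eno3, the muscle enolase, had 35.7, 35.3, 37.2 and 27.2 CPM in KO_BLM, against 26.8, 29.6, 26.7 and 33.4 CPM in WT_BLM, overlapping and not called (log2 fold change 0.22, SE 0.12, adjusted p = 0.166). Eno4, an enolase of the sperm tail, had 10.9, 15.5, 13.4 and 17.3 CPM in KO_BLM, against 5.55, 6.74, 8.09 and 4.41 CPM in WT_BLM, 2.30-fold higher (log2 fold change 1.2, SE 0.21, adjusted p = 0.00192). Ciliated cell markers were higher alongside it, in 5 of 5, with summed levels of 435.4 to 562.5 CPM in KO_BLM and 117.5 to 187.1 CPM in WT_BLM, and their part in the Eno4 result was not tested. Summed over all 5 genes, enolase had 115.3 ± 21.9 FPKM in KO_BLM and 259.2 ± 37.3 FPKM in WT_BLM (SD, n = 4 each).

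Pkm, pyruvate kinase of muscle and most other tissues (NCBI gene 18746, chr9:59656576-59679372), closes the pathway. It had 443.7, 437.8, 549.1 and 468.0 CPM in KO_BLM, against 870.3, 964.0, 895.4 and 1136.1 CPM in WT_BLM. The groups were far apart and Pkm was 2.04-fold lower (log2 fold change -1.03, SE 0.12, adjusted p = 0.000193), the smallest adjusted p among the lower members. The gene makes the splice forms PKM1 and PKM2, which counts per gene do not separate, and 14% of its 75-base words occur in 3 other genes. Pklr, the liver and red cell form, had 41 counts over the KO_BLM libraries and 22 over the WT_BLM libraries and was not tested.

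**Figure D2:**
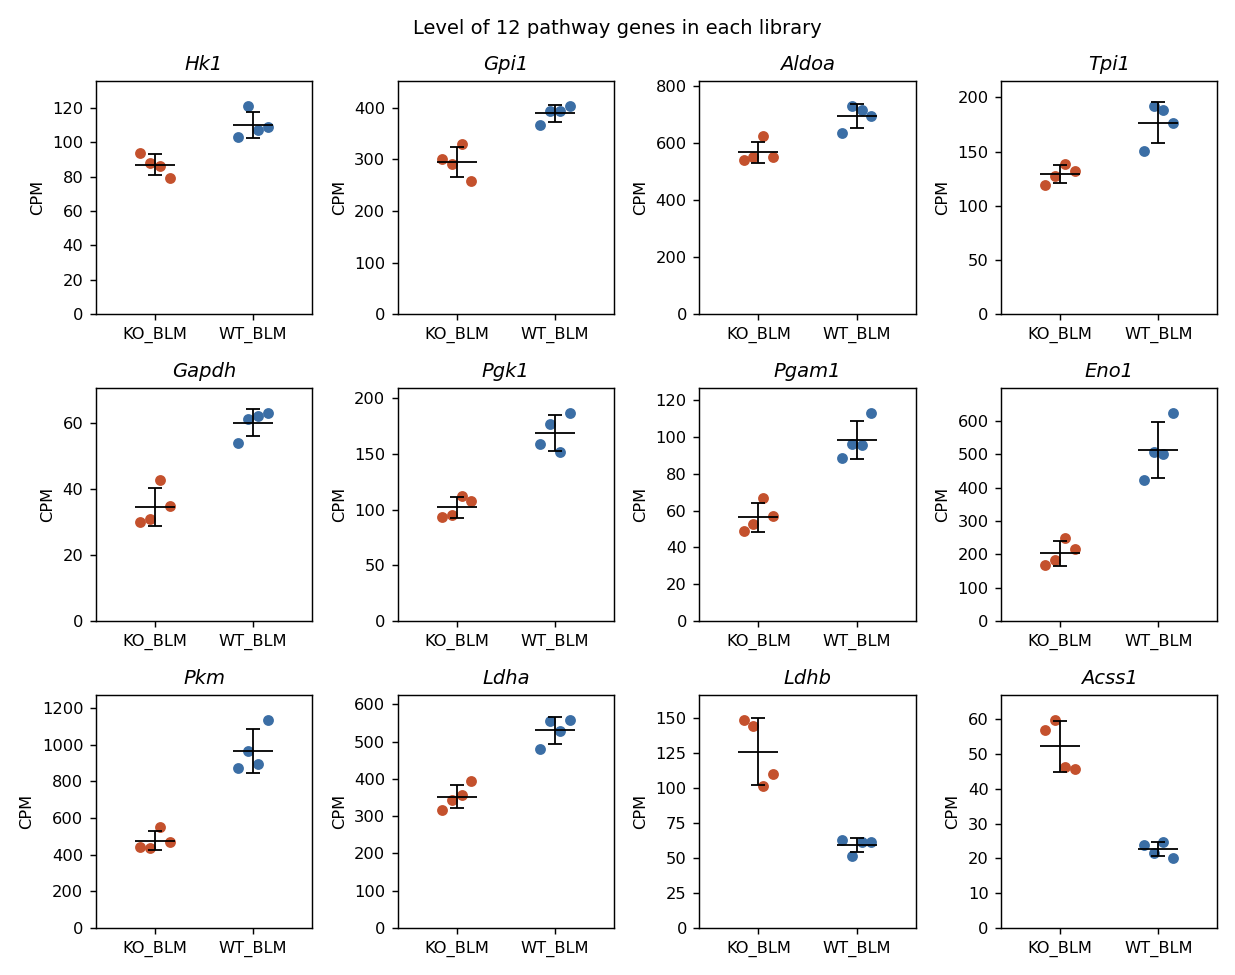
Each panel gives the CPM of 1 gene in the 4 KO_BLM and 4 WT_BLM libraries as points, with the mean and SD in black and a vertical axis starting at 0. The 10 genes from Hk1 to Ldha are lower in every KO_BLM library than in any WT_BLM library, by the largest ratio of means for Eno1 (166.8 to 250.7 CPM in KO_BLM and 422.9 to 624.7 CPM in WT_BLM), while Ldhb and Acss1 are higher in every KO_BLM library.

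The lactate dehydrogenase subunits moved in opposite directions. LDHA favours the conversion of pyruvate to lactate, and LDHB, the heart-type subunit, favours the reverse. Ldha (NCBI gene 16828, chr7:46842274-46855627) had 317.8, 342.8, 356.7 and 393.3 CPM in KO_BLM, against 479.5, 554.7, 528.9 and 559.1 CPM in WT_BLM. It was lower in every KO_BLM library, 1.5-fold (log2 fold change -0.59, SE 0.09, adjusted p = 0.0012). Ldhb (NCBI gene 16832, chr6:142490249-142507957) had 148.8, 144.1, 101.1 and 109.8 CPM in KO_BLM, against 62.5, 51.4, 61.5 and 61.6 CPM in WT_BLM. It was higher in every KO_BLM library, 2.13-fold (log2 fold change 1.09, SE 0.14, adjusted p = 0.000346), with libraries 1 and 2 above libraries 3 and 4.

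By deposited FPKM, but not by CPM, where Ldha was above Ldhb in every library, the rank of Ldha and Ldhb differed between the groups. The rank, the shares and the summed level depend on the gene lengths behind the FPKM. In KO_BLM library 1, 317.8 CPM of Ldha was 59.6 FPKM, while 148.8 CPM of Ldhb was 114.3 FPKM. Protein-coding transcripts hold 2922 different 75-base words for Ldha and 1640 for Ldhb. Other lengths were not tried, so the rank per length is uncertain. Ldha had 68.1 ± 7.92 FPKM in KO_BLM and 96.4 ± 7.47 FPKM in WT_BLM, and Ldhb had 99.2 ± 16.8 FPKM in KO_BLM and 44.0 ± 3.26 FPKM in WT_BLM (SD, n = 4 each). Ldha made up 34.2%, 36.7%, 46.2% and 46.6% of the summed lactate dehydrogenase FPKM in KO_BLM, against 65.2%, 72.5%, 67.6% and 68.8% in WT_BLM. The groups of shares did not overlap, and the mean share was 27.6 percentage points lower in KO_BLM (40.9% ± 6.40 in KO_BLM and 68.5% ± 3.03 in WT_BLM; SD, n = 4 each). By CPM, which does not correct for gene length, the Ldha share was 73.6% ± 5.16 in KO_BLM and 89.9% ± 1.26 in WT_BLM, a difference of -16.3 percentage points. The summed level of the step was 167.5 ± 12.3 FPKM in KO_BLM and 140.5 ± 5.84 FPKM in WT_BLM. Alveolar type 2 markers, at 29971.3, 27964.3, 21431.9 and 18836.2 CPM in KO_BLM libraries 1 to 4, and club cell markers, at 25742.8, 25375.3, 12872.4 and 14755.7 CPM, were likewise highest in KO_BLM libraries 1 and 2. All 4 club cell markers were higher in KO_BLM, and their summed level in WT_BLM was 3172.9 to 9869.5 CPM. The part of either cell type in the Ldhb result was not tested. The testis genes Ldhal6b and Ldhc had 15 and 1 counts over the KO_BLM libraries and 13 and 1 over the WT_BLM libraries and were not tested.

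Shares of the leading gene were compared in the same way at 12 steps served by more than 1 measured gene, with exact two-sided permutation tests over the 70 arrangements of 4 against 4 libraries, for which 0.0286 is the smallest possible p. At 5 steps the groups did not overlap, each with an exact p of 0.0286, which became 0.0686 after Benjamini-Hochberg adjustment over the 12 steps and so failed the correction. As 0.0286 is the smallest possible p, these 5 steps could not have passed, however far apart their groups lay. Besides Ldha these were Eno1, with 91.0% ± 1.15 of enolase FPKM in KO_BLM and 95.7% ± 0.368 in WT_BLM, Pgam1, with 92.8% ± 2.52 of mutase FPKM in KO_BLM and 97.7% ± 0.509 in WT_BLM, and Gapdh, with 98.2% ± 0.997 in KO_BLM and 99.5% ± 0.139 in WT_BLM. The fifth was Acss1, with 60.8% ± 2.20 of acetyl-CoA synthetase FPKM in KO_BLM and 54.3% ± 2.18 in WT_BLM (SD, n = 4 each). The Gapdh share rests on the untested Gapdhs, with 43 counts over the KO_BLM libraries and 21 over the WT_BLM libraries. The level of Gapdh is itself uncertain, as given above. By CPM the differences at these 5 steps kept their signs and adjusted p, and that of Eno1 was -12.6 percentage points, against -4.74 by FPKM, and that of Pgam1 -2.56, against -4.91 by FPKM. As the share of Eno1 was lower, that of Eno3 was 5.69% ± 1.28 in KO_BLM and 2.01% ± 0.163 in WT_BLM, although its own level did not pass the test. All FPKM shares depend on the gene lengths behind them, and the share of Eno3 was taken by FPKM only. The other 7 steps had overlapping shares, with exact p-values of 0.114 to 0.8 (0.228 to 0.8 after adjustment). Of these, Pkm held 99.8% ± 0.214 of pyruvate kinase FPKM in KO_BLM and 99.9% ± 0.0271 in WT_BLM, and Hk1 held 40.6% ± 2.04 of glucose phosphorylation FPKM in KO_BLM and 41.9% ± 3.01 in WT_BLM.

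**Figure D3:**
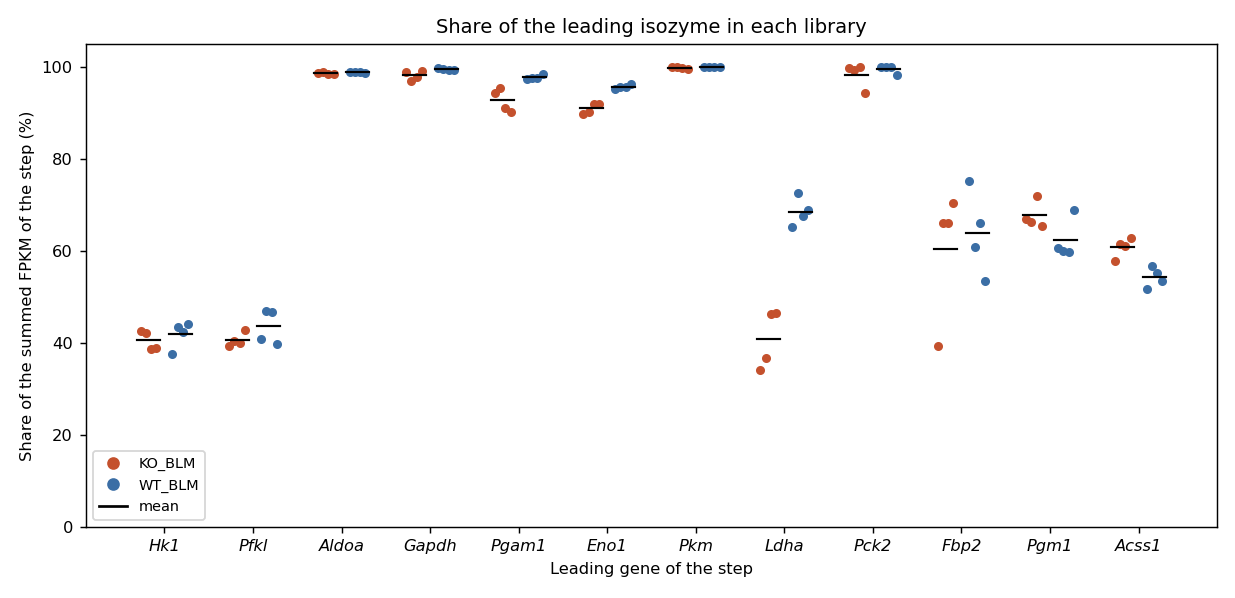
For the leading gene of each of 12 steps, points give its share of the summed FPKM of all genes of that step in each library, KO_BLM to the left of WT_BLM, with the mean as a black line. Ldha shows the widest gap, 40.9% in KO_BLM and 68.5% in WT_BLM on average, while the aldolase and pyruvate kinase steps stay near their upper limit in both groups.

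In the pyruvate dehydrogenase complex, Dlat was the only member called. Dlat, the acetyltransferase subunit, had 40.2, 43.1, 45.0 and 39.8 CPM in KO_BLM, against 54.8, 46.9, 49.1 and 62.8 CPM in WT_BLM, without overlap and 1.27-fold lower (log2 fold change -0.35, SE 0.10, adjusted p = 0.0223). The call was lost without KO_BLM library 1 (adjusted p = 0.056), KO_BLM library 2 (0.0521), KO_BLM library 4 (0.0535) or WT_BLM library 1 (0.0567), and in either pair of KO_BLM libraries (0.0738 for 1 and 2, and 0.127 for 3 and 4). Pdha1, the catalytic alpha subunit, had 129.7, 128.2, 144.5 and 133.0 CPM in KO_BLM, against 157.2, 146.4, 141.6 and 176.0 CPM in WT_BLM, with overlap. It averaged 133.9 ± 7.39 CPM in KO_BLM and 155.3 ± 15.3 CPM in WT_BLM (SD, n = 4 each; adjusted p = 0.0769 by edgeR). Pdhx, the structural binding protein, had 16.7 to 17.8 CPM in KO_BLM and 18.3 to 20.6 CPM in WT_BLM, apart but not called (log2 fold change -0.20, SE 0.09, adjusted p = 0.0933). Pdhb and Dld, the catalytic beta subunit and the lipoamide dehydrogenase, had adjusted p of 0.673 and 0.535. The summed FPKM of the complex was 139.0 ± 5.59 in KO_BLM and 144.5 ± 7.66 in WT_BLM. Pdha2, the testis alpha subunit, had 0 counts over the KO_BLM libraries and 1 over the WT_BLM libraries.

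The enzymes of gluconeogenesis alone were mostly at trace level in these lungs. Pck2, the mitochondrial phosphoenolpyruvate carboxykinase, had 47.2, 48.2, 52.0 and 40.6 CPM in KO_BLM, against 42.1, 46.7, 50.0 and 36.3 CPM in WT_BLM, overlapping and not called (log2 fold change 0.10, SE 0.11, adjusted p = 0.496). G6pc3, the broadly expressed glucose-6-phosphatase, had 42.1, 43.1, 50.8 and 40.3 CPM in KO_BLM, against 45.8, 47.3, 47.9 and 36.9 CPM in WT_BLM. It averaged 44.1 ± 4.63 CPM in KO_BLM and 44.5 ± 5.14 CPM in WT_BLM (SD, n = 4 each; adjusted p = 0.942 by edgeR). Pck1, the cytosolic carboxykinase of liver, kidney and fat, had 1, 5, 1 and 36 counts in KO_BLM, against 0, 0, 1 and 9 counts in WT_BLM, so nearly all its reads came from library 4 of each group. Adipocyte markers summed to 0.937, 6.25, 2.19 and 22.4 CPM in KO_BLM, against 1.15, 0.347, 0.643 and 1.09 CPM in WT_BLM, highest in the same KO_BLM library. Their part in the Pck1 counts was not tested. Fbp1 and Fbp2, the fructose bisphosphatases, had 26 and 33 counts over the KO_BLM libraries and 21 and 27 over the WT_BLM libraries. The leading one, Fbp2, had 4, 9, 9 and 11 counts in KO_BLM, against 7, 6, 6 and 8 counts in WT_BLM. The liver and islet phosphatases G6pc and G6pc2 had 2 counts each over the KO_BLM libraries, and 2 and 4 over the WT_BLM libraries.

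Both acetyl-CoA synthetases of the map were higher. Acss1, the mitochondrial acetyl-CoA synthetase, which makes acetyl-CoA from acetate (NCBI gene 68738, chr2:150618111-150668240), had 56.9, 59.9, 46.2 and 45.7 CPM in KO_BLM, against 23.9, 21.6, 24.6 and 20.2 CPM in WT_BLM. All KO_BLM libraries lay well above all WT_BLM libraries, 2.31-fold (log2 fold change 1.21, SE 0.12, adjusted p = 8.05e-05), the smallest adjusted p of the pathway. Acss2, the cytosolic and nuclear form (NCBI gene 60525, chr2:155518043-155562743), had 32.8, 29.4, 23.3 and 21.3 CPM in KO_BLM, against 17.5, 12.9, 15.8 and 13.8 CPM in WT_BLM. It was 1.78-fold higher without overlap (log2 fold change 0.83, SE 0.16, adjusted p = 0.00286). For both, KO_BLM libraries 1 and 2 were above libraries 3 and 4, the order also seen for the alveolar type 2 markers, whose part in these results was not tested. The summed level of the pair was 24.6 ± 3.32 FPKM in KO_BLM and 11.2 ± 1.26 FPKM in WT_BLM (SD, n = 4 each).

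Among the other side entries, Akr1a1, an aldehyde reductase (NCBI gene 58810, chr4:116636510-116651674), was the most abundant member per length, at 385.0 FPKM in KO_BLM and 461.7 FPKM in WT_BLM. It had 514.9, 506.9, 569.6 and 521.3 CPM in KO_BLM, against 706.4, 654.3, 667.3 and 663.8 CPM in WT_BLM, 1.27-fold lower without overlap (log2 fold change -0.35, SE 0.08, adjusted p = 0.00655). Pgm2, a phosphoglucomutase, had 25.5, 26.2, 25.3 and 27.3 CPM in KO_BLM, against 35.6, 31.5, 33.3 and 33.2 CPM in WT_BLM, 1.28-fold lower without overlap (log2 fold change -0.36, SE 0.08, adjusted p = 0.0053). With KO_BLM libraries 3 and 4 alone the adjusted p was 0.0652 for Akr1a1 and 0.0581 for Pgm2. Pgm1, which links glycogen and glucose-6-phosphate, had 59.3, 59.0, 74.2 and 59.3 CPM in KO_BLM, against 63.1, 54.2, 56.7 and 84.4 CPM in WT_BLM. Galm, galactose mutarotase, had 7.11, 8.98, 9.18 and 10.4 CPM in KO_BLM, against 8.36, 7.74, 9.54 and 8.01 CPM in WT_BLM. Both overlapped between the groups: Pgm1 averaged 63.0 ± 7.52 CPM in KO_BLM and 64.6 ± 13.7 CPM in WT_BLM, and Galm 8.92 ± 1.37 CPM in KO_BLM and 8.41 ± 0.793 CPM in WT_BLM (SD, n = 4 each; adjusted p = 0.859 and 0.667 by edgeR). The bisphosphoglycerate genes Bpgm and Minpp1, which make and break down 2,3-bisphosphoglycerate, did not pass the test (adjusted p = 0.959 and 0.131). Bpgm had 48.8, 53.7, 58.7 and 41.3 CPM in KO_BLM, against 48.6, 58.2, 49.7 and 44.7 CPM in WT_BLM. Gm29667 had 14 counts over the KO_BLM libraries and 22 over the WT_BLM libraries and was not tested.

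**Figure D4:**
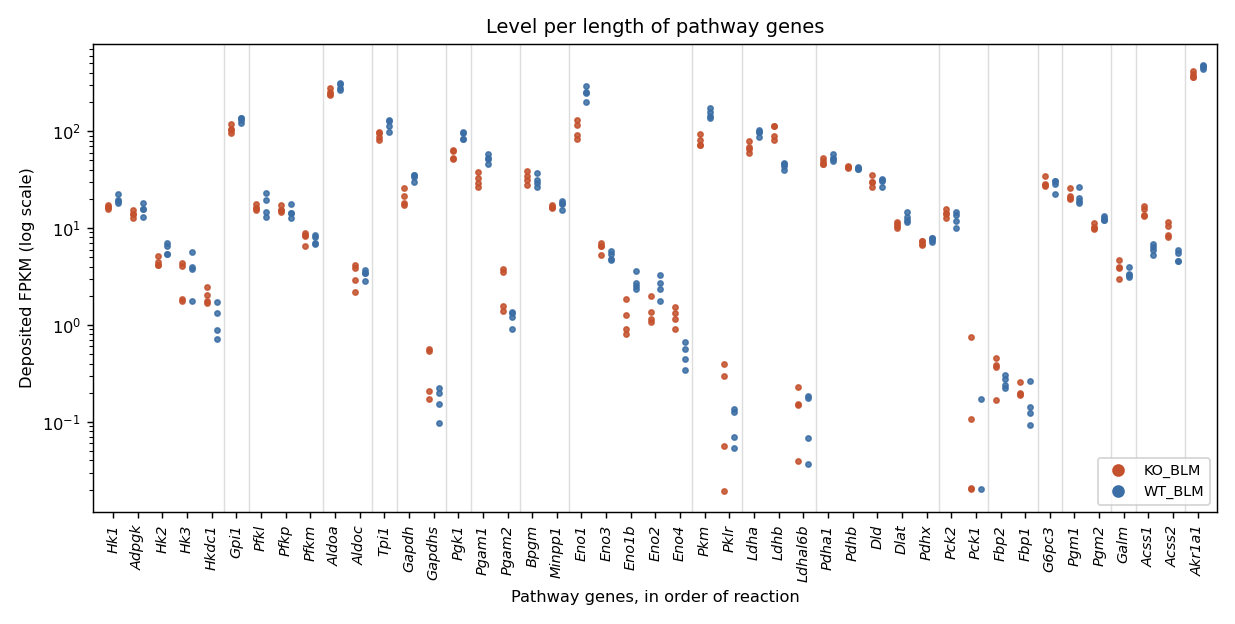
Points give the deposited FPKM of pathway genes in each library on a log axis, for genes of at least 0.1 FPKM on average, in order of reaction with KO_BLM to the left of WT_BLM. Means over all libraries span from 0.13 FPKM for Ldhal6b to 423.3 FPKM for Akr1a1, and Ldhb lies above Ldha in KO_BLM but below it in WT_BLM. That rank depends on the gene lengths behind the FPKM and is not seen by CPM.

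Genes that feed or control the pathway were taken from lists chosen with earlier results of these data known. The calls of each list stand against 20.8% lower and 20.7% higher among all tested genes. Of 10 tested hexose carriers, 4 were lower (40.0%) and 0 higher, and the list's median log2 fold change was -0.01, against 0.00 for all tested genes. Slc2a1, the basal glucose transporter GLUT1, had 34.4, 34.3, 36.4 and 39.7 CPM in KO_BLM, against 67.6, 79.5, 70.5 and 97.6 CPM in WT_BLM. It was 2.17-fold lower with a wide gap between the groups (log2 fold change -1.12, SE 0.12, adjusted p = 0.000148). Slc2a9, a urate and hexose carrier, and Slc2a8, an intracellular glucose carrier, were lower by log2 fold changes of -0.79 (SE 0.19, adjusted p = 0.00897) and -0.40 (SE 0.11, adjusted p = 0.0161). Of 7 tested genes of lactate and pyruvate transport, 2 were lower (28.6%) and 1 higher (14.3%; median 0.15). Slc16a1, the lactate carrier MCT1, had 46.8, 41.7, 46.1 and 50.1 CPM in KO_BLM, against 55.7, 86.8, 57.9 and 78.6 CPM in WT_BLM, 1.51-fold lower (log2 fold change -0.59, SE 0.15, adjusted p = 0.00977). Slc16a3, the hypoxia-inducible lactate exporter MCT4, was lower (log2 fold change -0.56, SE 0.18, adjusted p = 0.0306), a call lost without KO_BLM library 1 (0.0652), KO_BLM library 2 (0.0803), WT_BLM library 2 (0.0737) or WT_BLM library 3 (0.0739), and with library totals alone (0.0826). Emb, a chaperone of lactate carriers, was higher (log2 fold change 0.30, SE 0.10, adjusted p = 0.0401), a call lost on leaving out any library but WT_BLM library 4 (0.0593 to 0.101).

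Of 12 tested control enzymes, 3 were lower and 3 higher (25.0% each, against 20.8% and 20.7% of all tested genes; median -0.03). Pfkfb3, which makes the phosphofructokinase activator fructose 2,6-bisphosphate, had 89.0, 86.3, 83.7 and 72.0 CPM in KO_BLM, against 148.9, 142.9, 114.0 and 200.4 CPM in WT_BLM. It was 1.83-fold lower without overlap (log2 fold change -0.87, SE 0.16, adjusted p = 0.00213), beside phosphofructokinase genes that did not pass the test. Pfkfb2, of the same family, was called the other way, with overlapping groups. It averaged 86.7 CPM in KO_BLM and 62.5 CPM in WT_BLM (log2 fold change 0.47, SE 0.14, adjusted p = 0.0198). Pdk2, which inhibits pyruvate dehydrogenase, was higher (log2 fold change 0.48, SE 0.12, adjusted p = 0.00955), while Pdk1 and Pdk3, which have the same role, were lower (log2 fold change -0.42 for both, adjusted p = 0.0296 and 0.0181). Pdp2, which reactivates it, was higher too (log2 fold change 0.58, SE 0.16, adjusted p = 0.0153), a call lost without KO_BLM library 2. In the pentose phosphate pathway, which branches off at glucose-6-phosphate, 4 of 8 were lower (50.0%) and 2 higher (25.0%; median -0.21). G6pdx and Pgd, its NADPH-producing dehydrogenases, were lower by log2 fold changes of -0.59 (SE 0.12, adjusted p = 0.00424) and -0.42 (SE 0.09, adjusted p = 0.00508), and Rpia, ribose-5-phosphate isomerase, was higher by 0.57 (SE 0.13, adjusted p = 0.00668).

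Of 13 tested glycogen genes, 2 were lower (15.4%) and 3 higher (23.1%), shares near the 20.8% and 20.7% of all tested genes (median -0.08). Phkb, a phosphorylase kinase subunit, and Pygm, muscle glycogen phosphorylase, were higher by log2 fold changes of 0.73 (SE 0.10, adjusted p = 0.000718) and 0.90 (SE 0.17, adjusted p = 0.00319). Of 9 genes of fructose and galactose entry, 2 were lower (22.2%) and 0 higher (median -0.04): Galk1, galactokinase, with a log2 fold change of -0.57 (SE 0.09, adjusted p = 0.00137), and Mpi, mannose-6-phosphate isomerase, with -0.42 (SE 0.08, adjusted p = 0.00387). Of 9 known inducers and regulators of glycolytic genes, 2 were lower (22.2%, near the 20.8% of all tested genes) and 0 higher (median -0.11). Myc, a transcription factor that raises many glycolytic genes, had 12.8, 12.1, 14 and 18.2 CPM in KO_BLM, against 62.5, 48.0, 47.8 and 74.2 CPM in WT_BLM. The groups were far apart, and Myc was 4.08-fold lower (log2 fold change -2.03, SE 0.18, adjusted p = 4.86e-05). Hif1a, the oxygen-regulated subunit of hypoxia-inducible factor, had 53.1, 58.5, 71.0 and 82.3 CPM in KO_BLM, against 111.0, 145.7, 114.1 and 164.5 CPM in WT_BLM, 2.02-fold lower without overlap (log2 fold change -1.01, SE 0.17, adjusted p = 0.00145). These are transcript levels, and no protein, enzyme activity or metabolite was measured.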

How the data were processed

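RNA of 8 mouse lung libraries, 4 KO_BLM and 4 WT_BLM, was sequenced from a stranded mRNA kit, per the labels' protocols. The authors deposited whole-number counts per gene, which are not normalized, and FPKM values, which for 100% of genes are the counts over the library total and 1 gene length (relative tolerance 1e-06), so the FPKM are no separate measurement. Cufflinks, DESeq, HTSeq, Trimmomatic and the build mm10 are named, with no role, in the submitters' processing notes. Aligner, annotation and strand setting: not given in the sources used here. Columns named PHT2, another name of SLC15A3, were taken as the KO_BLM samples of the same number, and 0 columns belonged to other samples.

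Counts were tested with edgeR 4.0.16 in R 4.3.3: filterByExpr (minimum count 10, minimum total 15), TMM factors, robust quasi-likelihood F tests and Benjamini-Hochberg adjustment at 0.05 over 14746 genes. The variation between libraries that edgeR estimated beyond counting noise had a coefficient of 16.6%, and it may be technical. The SE of a log2 fold change is its size divided by the root of its F. CPM used TMM-scaled library sizes. Isozyme shares used the summed FPKM of all genes of a step, at steps with at least 2 genes above a mean of 0.1 FPKM. They were compared with exact permutation tests in SciPy 1.17.1. Libraries of a group differed beyond counting noise in every pair (chi-square over its degrees of freedom, 7.24 to 55.7). The tests were run on simulated data first. Gene coordinates come from RefSeq on GRCm38, where all 54 members matched, and 49 had a promoter window. Shared 75-base words were counted over GENCODE transcripts of the same build.

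Alternatives were RLE factors, library totals alone, other filters, DESeq2 1.42.0, voom with quality weights in limma 3.58.1, limma fits to log2(FPKM + 1) and log2(FPKM + 0.1), a replicate block and leaving out each library. Library values are given for the leading gene of each step (Gm29667, with no step, by its summed counts) and for called members of at least 1 FPKM in a group, and lists name up to 3 called genes of smallest p. Genes named beyond this, among them Pck1, Hk3, Pdk1, Pdk3 and Pfkfb2, were chosen after their values were seen. The members and lists were chosen with earlier results of these data known. A few genes within the counts are not reported by name here.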

Additional observations from a re-analysis of the deposited data

Results flagged for a closer look

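Within each group of 4 libraries, a value was marked when its gap to the nearest other library, over the group's whole range, passed Dixon's 95% critical value. Of 140 groups checked, 10 were marked, and chance marks about 1 in 20 groups. Pfkm had 20.4 CPM in KO_BLM library 4, against 27.7 to 28.5 CPM in the other KO_BLM libraries. Aldoa had 624.8 CPM in KO_BLM library 3, against 542.2 to 553.9 CPM in the others. Pgm1 had 74.2 CPM in KO_BLM library 3, against 59.0 to 59.3 CPM in the others. Ldhb had 51.4 CPM in WT_BLM library 2, against 61.5 to 62.5 CPM in the others, all below the KO_BLM libraries.

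The other 6 were shares of the leading gene in the summed FPKM of its step. Pck2 held 94.4% of the carboxykinase step in KO_BLM library 4 (99.3% to 99.9% in the others) and 98.3% in WT_BLM library 4 (at least 99.9% in the others). These are the libraries with the most Pck1 counts. Fbp2 held 39.3% of the bisphosphatase step in KO_BLM library 1 (66.0% to 70.4% in the others), a step with at most 33 counts per gene in a group. Aldoa held 98.6% of aldolase in WT_BLM library 4 (98.9% in the others), Pgam1 held 98.5% of mutase in WT_BLM library 4 (97.4% to 97.5% in the others), and Pgm1 held 69.0% of phosphoglucomutase in WT_BLM library 4 (59.8% to 60.7% in the others).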

How the results depend on the processing

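Of the 21 called members, 18 stayed on the same side of the threshold in every alternative that tested them, and 0 reversed, the pairs of KO_BLM libraries aside. There were 18 such alternatives, of which Eno4 was tested in 16, since it fell under the FPKM filter, and Pgam2 in 17. The exceptions were Aldoa, Dlat and Pgam2. Besides the libraries named with them, Aldoa and Dlat lost their calls in the limma fits on FPKM (adjusted p 0.088 to 0.103 for Aldoa, 0.0542 to 0.0658 for Dlat), and Pgam2 in those fits (0.052 to 0.0779), with voom weights (0.318), without a filter (0.051) and with the replicate block (0.0968). Pgam2 did not pass the strict filter. Of the 18 uncalled members compared, 6 were called in some alternative (Adpgk, Hk3, Hkdc1, Minpp1, Eno3 and Pdha1). Genes called lower numbered 3061, against 1983 with log2(FPKM + 1) and 1976 with log2(FPKM + 0.1), 2145 with log2(FPKM + 1) and no filter, and 2253 with library totals alone, and none of these uses TMM factors. With KO_BLM libraries 3 and 4 alone, 9 members were lower, and over all genes 1645 were lower and 1757 higher, with fewer samples.

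Signs that changed were those of log2 fold changes near 0 in uncalled members. Pfkp was 0.0041, and -0.00031 with RLE factors, -0.00044 with DESeq2 and -0.011 with voom. Pfkm was 0.0037, and -0.00085 with RLE factors, -0.0011 with DESeq2 and -0.0044 with the replicate block. Pdhb was -0.039, and 0.048 with library totals alone, 0.047 with log2(FPKM + 1), with and without a filter, and 0.048 with log2(FPKM + 0.1). Dld was -0.085, and 0.0048 with library totals alone and 8.4e-05 with log2(FPKM + 1), with and without a filter. G6pc3 was -0.012, and 0.072 with library totals alone, 0.0091 with the strict filter, and 0.074, 0.077 and 0.074 in the FPKM fits. Pgm1 was -0.036, and 0.057 with library totals alone, 0.023 with voom, and 0.062, 0.065 and 0.062 in the FPKM fits. The cause was not tested. Leaving out single libraries gave -0.043 to 0.085 for Pfkp, -0.042 to 0.10 for Pfkm, -0.24 to 0.033 for Aldoc, -0.069 to 0.091 for Bpgm, -0.093 to 0.025 for G6pc3, -0.13 to 0.12 for Pgm1 and -0.0019 to 0.18 for Galm, and differences in share of -1.71 to 0.122 percentage points for Pck2 and -6.91 to 3.59 for Fbp2.

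The replicate numbers gave no clear sign of pairing the libraries, though correlations among so few libraries cannot exclude it. Deviations of same-numbered libraries correlated at 0.139, -0.024, 0.000751 and -0.0649. KO_BLM library 1 correlated best with WT_BLM library 1, but not every library correlated best with its own number. With the replicate block 2878 genes were higher and 2824 lower, and 16 members were lower and 4 higher. Depth limits the 14 untested members, which had at most 43 counts over a group.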
